A study of Mus musculus with 12 samples.

Results

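Keratin genes and other genes that mark bile duct cells and liver progenitors were followed in mouse livers with and without the drug NTBC. The set was fixed by symbol as Krt8, Krt18, Krt19, Krt23, Epcam, Sox9, Prom1, Bicc1, Cldn4 and Spp1, and its members are the probe sets annotated to only 1 of these symbols. They were 12 of 22626 probe sets on the Affymetrix 430A array and 16 of 45037 on the larger 430 2.0 array, and on each they covered 9 of the 10 genes, of 12393 named genes on 430A and 18193 on 430 2.0. Spp1, the gene of osteopontin, had no probe set under its symbol alone and was not analysed here.

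Keratins are the intermediate filament proteins of epithelia, in which a type I and a type II keratin pair. Adult hepatocytes hold the pair of Krt8 and Krt18, while the cells that line bile ducts hold Krt19 and Krt7 as well. Epcam, Sox9, Prom1, Cldn4 and Krt23 are known as genes of ducts or of the progenitor-like cells that appear around the portal tracts of injured liver, and injured hepatocytes can express some of them too.

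Mice were 10 weeks of age, and RNA came from pieces of their liver. Fah encodes the enzyme that ends tyrosine catabolism, and mice without it stay healthy while NTBC blocks an earlier step of that pathway. Livers of 3 Fah knockout mice off NTBC form the Fah off group. Livers of mice that lack both Fah and p21 and were off NTBC form the Fah p21 off group, 2 on 430A and 2 others on 430 2.0; per the protocol, water was given for 14 days before the livers were taken. p21 is the cell cycle inhibitor that Cdkn1a encodes. The normal group on 430A held 4 livers: normal 1 from a wildtype mouse on water, normal 2 from a wildtype mouse on NTBC, normal 3 from a Fah knockout on NTBC and normal 4 from a knockout of both genes on NTBC. The 430 2.0 array of the normal group carries the same title number and genotype as normal 4 and was taken as that liver. The normal group thus mixes genotypes and treatments, and livers off NTBC always means the knockout livers of the Fah off and Fah p21 off groups, not normal 1. The titles number the livers as biological replicates, and neither strain nor sex of the mice is stated.

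Values are MAS5 signals, on a linear scale and scaled by the authors to a common level per array. Changes are log2 fold changes ± SE of log2(signal + offset) from limma, with an offset of 9.9 on 430A and 3.8 on 430 2.0, so the change of a dim probe set is understated. Passing means a Benjamini-Hochberg adjusted p under 0.05 over every probe set tested, and rose or fell is written only of what passed. The labelled tissue was checked by its defining genes: on 430A Alb, the albumin gene, was at 11572.7 to 13805.9 in the 5 livers off NTBC and at 17061.1 to 18854.8 in the normal livers. On 430 2.0 Alb was at 20862.9 and 21075.5 in the Fah p21 off livers and at 21561.2 in normal 4. In whole liver, more cells of a type and more RNA per cell cannot be told apart.

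Off NTBC, 8 of the 9 measured genes were higher than in normal liver in both genotypes: Krt8, Krt18, Krt23, Epcam, Cldn4, Prom1, Bicc1 and Sox9. Krt8 and Krt18, the keratins that hepatocytes already contain, rose by 0.91 to 1.36 on the log2 scale, and Krt23, Prom1 and Bicc1 rose by 2.73 to 3.46 from dim signals. Krt19 did not pass. On 430A, 10 of the 12 probe sets reached the filter on dim signals, and all 10 passed in the rising direction in each genotype, against a background of 20.1% of 15307 tested probe sets that rose in Fah off livers and 17.7% that rose in Fah p21 off livers. Of those 10, 6 reached the filter only with the help of livers off NTBC, so that count is not read as support. Every liver off NTBC lay above every normal liver in 10 of the 12, as in 14.4% of all probe sets on the array. The balance of the background turned with the scaling: in Fah p21 off livers 2716 probe sets rose and 1637 fell with the authors' scaling, against 1626 and 2507 with each array set to a common median, and all 10 tested member probe sets had a positive change under both. With no filter, all 12 were tested and 11 rose in each genotype. Of all 22626 probe sets tested that way, 3146 rose in Fah off and 2748 in Fah p21 off livers.

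**Figure D1:**
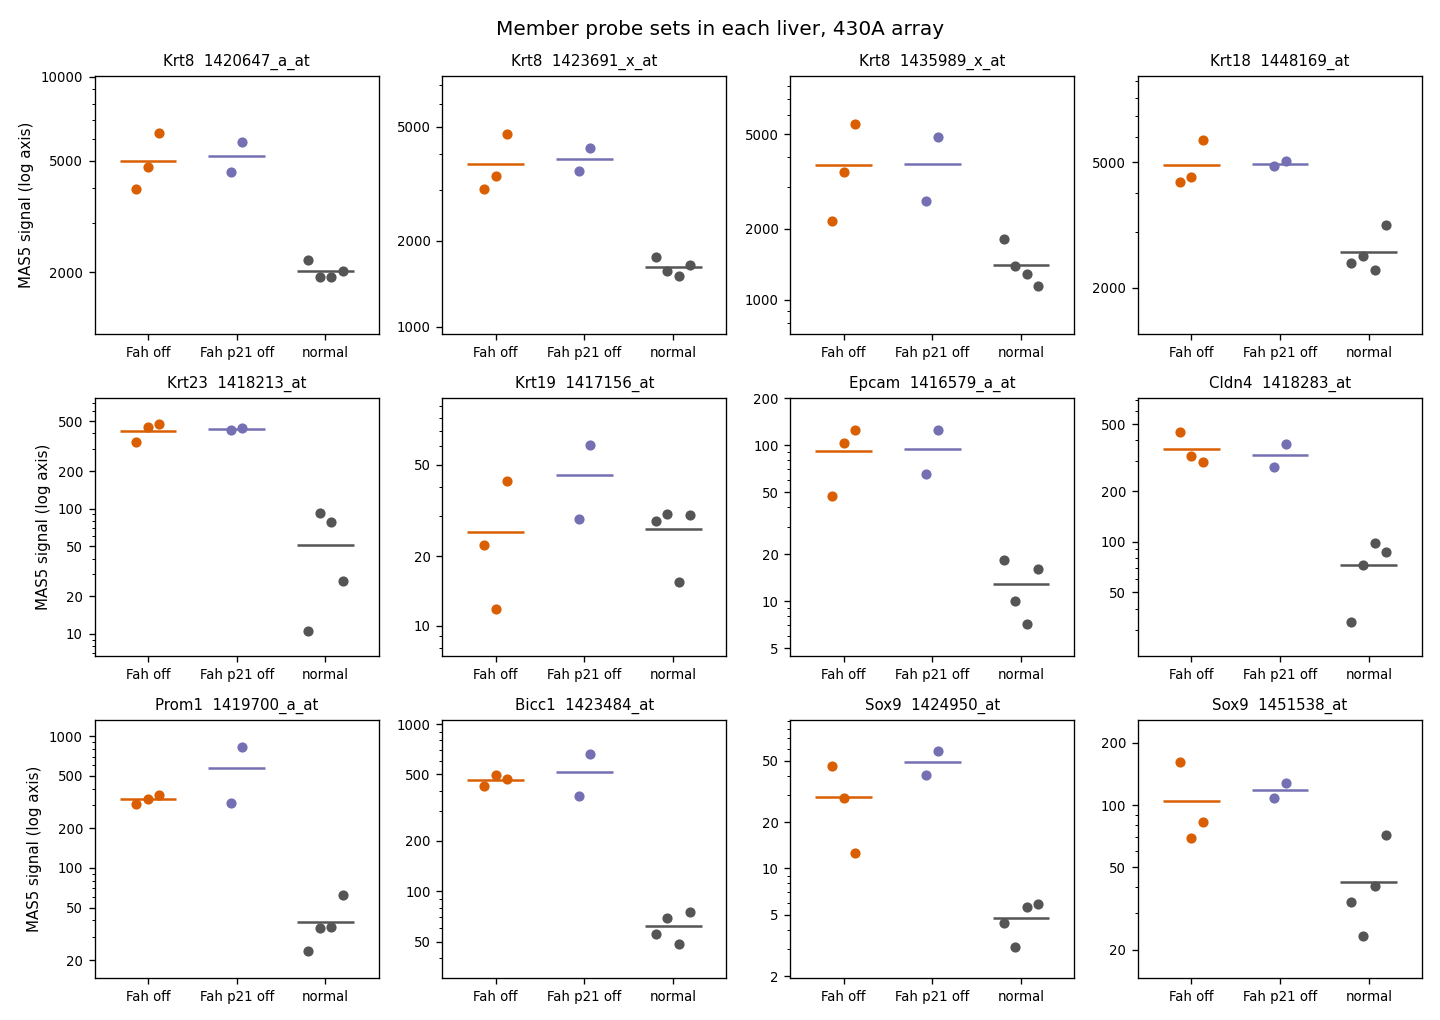
Signal of each of the 12 member probe sets on the 430A array (y axis, MAS5 signal, log axis) in the 3 Fah off, 2 Fah p21 off and 4 normal livers. Points are livers and lines are group means. In 10 panels every liver off NTBC lies above every normal liver, and the exceptions are Krt19 and Sox9 1451538_at.

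The type II keratin Krt8 has 3 probe sets on 430A. By 1420647_a_at its signal was 3978.4, 4738 and 6282.3 in the Fah off livers and 4574.2 and 5859.8 in the Fah p21 off livers, against 2214.2, 1917, 1927.6 and 2024.2 in normal 1 to 4. All 5 livers off NTBC lay above all 4 normal livers, and the normal livers lay close together whatever their genotype or water. The change was 1.28 ± 0.16 (limma adjusted p = 0.000101) in Fah off livers and 1.36 ± 0.18 (adjusted p = 0.000262) in Fah p21 off livers. The 2 probe sets of Krt8 whose names end in x_at, a sign that their probes may also bind related sequences, gave the same direction. For 1423691_x_at the changes were 1.16 ± 0.15 and 1.24 ± 0.17. For 1435989_x_at they were 1.31 ± 0.30 and 1.36 ± 0.34, with the widest spread of the 3: signals were 2154.6, 3462.9 and 5491.1 in Fah off livers and 2624.6 and 4875 in Fah p21 off livers, against 1146.4 to 1804.6 in normal livers. Without Fah p21 off 2 the Fah p21 off change of that probe set was 0.92 and did not pass (adjusted p = 0.16).

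Krt18, the type I partner of Krt8 in hepatocytes, was at 4340.5, 4501.3 and 5854.9 in the Fah off livers and at 4850.7 and 5038.6 in the Fah p21 off livers, against 2396.9, 2529.7, 2279 and 3171.8 in normal 1 to 4. Neither knockout group off NTBC overlapped the normal group, and normal 4, the knockout of both genes on NTBC, was the highest of the normal livers. Krt18 rose by 0.91 ± 0.14 in Fah off livers (adjusted p = 0.000563) and by 0.94 ± 0.16 in Fah p21 off livers (adjusted p = 0.00152), the smallest changes of any member probe set that passed on 430A. As ratios of mean signals, Krt18 stood at 1.89 in Fah off and 1.91 in Fah p21 off livers over normal livers, and Krt8 1420647_a_at at 2.47 and 2.58. Set against normal 4 alone, its own genotype on NTBC, the Fah p21 off change of Krt18 was 0.64 and did not pass (adjusted p = 0.0614).

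The upstream sequences of this keratin pair are shown because both genes moved together at high signal. RefSeq promoter windows on the build GRCm38.p6, from 250 bases before to 50 bases after the start of the gene, were there for 6 of the 9 measured genes, 7 windows in all. They were searched on both strands for TGANTCA (AP-1), GGAATG (TEAD), TGGGAA (RBPJ), ATTGTT (SOX) and GGGCGG (GC box). Capitals mark TGANTCA and TGGGAA on either strand in the 250 bases before the start, 5′ to 3′ along the gene. The Krt8 window, chr15:102004343-102004592 on the minus strand, held TGGGAA once, 134 bases before the start, and those letters stood in 25.6% of the 32851 windows of all genes. The Krt18 window, chr15:102027966-102028215 on the plus strand, held none of the 5 motifs, which says only that these letters are not there.
Krt8: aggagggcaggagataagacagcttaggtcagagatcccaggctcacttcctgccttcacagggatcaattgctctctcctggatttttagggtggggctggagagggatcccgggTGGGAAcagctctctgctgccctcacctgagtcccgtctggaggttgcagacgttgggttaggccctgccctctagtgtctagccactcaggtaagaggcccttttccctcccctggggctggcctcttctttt
Krt18: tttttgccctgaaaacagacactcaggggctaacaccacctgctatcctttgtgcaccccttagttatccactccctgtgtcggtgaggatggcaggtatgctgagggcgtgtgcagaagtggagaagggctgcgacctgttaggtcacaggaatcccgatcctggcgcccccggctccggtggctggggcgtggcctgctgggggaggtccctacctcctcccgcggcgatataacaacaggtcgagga

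Krt23, a type I keratin, was at 338.2, 445.9 and 478.6 in the Fah off livers and at 424.8 and 443 in the Fah p21 off livers, against 10.6, 91.6, 78.2 and 26.4 in normal 1 to 4. The 5 livers off NTBC lay within a narrow band, while the normal livers spread widely, with the wildtype liver on water lowest. The rise was 3.07 ± 0.46 (8.39-fold, adjusted p = 0.000425) in Fah off livers and 3.13 ± 0.53 (8.74-fold, adjusted p = 0.00124) in Fah p21 off livers. Without normal 1 the changes were 2.63 and 2.69 and passed.

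Krt19 is a keratin widely used to mark bile duct cells. Its signal was 22.4, 11.8 and 42.5 in the Fah off livers and 29.1 and 60.8 in the Fah p21 off livers, against 28.6, 30.4, 15.5 and 30.3 in normal 1 to 4. The groups overlapped, and no liver reached the 40th percentile of its array, so Krt19 was tested only with no filter: the change was -0.09 ± 0.34 in Fah off livers (adjusted p = 0.881, 95% interval -0.85 to 0.66) and 0.57 ± 0.39 in Fah p21 off livers (adjusted p = 0.377, 95% interval -0.29 to 1.43). The interval in Fah off livers stays under 1 while that in Fah p21 off livers does not. At so dim a signal the offset pulls a change towards 0.

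Epcam, an adhesion protein of duct and progenitor cells, was at 47.1, 102.5 and 125.3 in the Fah off livers and at 65.6 and 124.5 in the Fah p21 off livers, against 18.5, 10.1, 7.1 and 16.2 in normal 1 to 4. The groups did not overlap, although every normal liver and 2 of the 5 livers off NTBC were under the 40th percentile of their array. Epcam rose by 2.09 ± 0.41 (4.25-fold, adjusted p = 0.00222) in Fah off livers and by 2.17 ± 0.46 (4.50-fold, adjusted p = 0.00508) in Fah p21 off livers. Without Fah p21 off 2 the second change was 1.75 (adjusted p = 0.0812) and did not pass.

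Cldn4, a tight junction claudin of duct epithelium, was at 446.7, 324.7 and 297.6 in the Fah off livers and at 276.7 and 379.2 in the Fah p21 off livers, against 33.3, 72.7, 98.2 and 86.4 in normal 1 to 4. All livers off NTBC lay above all normal livers, and the wildtype liver on water was again the lowest. The rise was 2.21 ± 0.30 (4.62-fold, adjusted p = 0.000186) in Fah off livers and 2.10 ± 0.34 (4.28-fold, adjusted p = 0.000907) in Fah p21 off livers.

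Prom1, the gene of the membrane protein prominin-1 or CD133, was at 305.2, 332.7 and 357.9 in the Fah off livers and at 309.8 and 828 in the Fah p21 off livers, against 23.3, 35, 35.8 and 62.5 in normal 1 to 4. The 3 Fah off livers were tight, and Fah p21 off 2 stood alone above every other liver. Prom1 rose by 2.86 ± 0.33 (7.24-fold, adjusted p = 6.12e-05) in Fah off livers and by 3.46 ± 0.37 (adjusted p = 6.74e-05) in Fah p21 off livers. Without Fah p21 off 2 the second change was 2.76 and still passed (adjusted p = 0.00116), and without Fah p21 off 1 it was 4.15.

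Bicc1, which encodes an RNA-binding protein of tubular epithelia, was at 428.5, 492.4 and 467 in the Fah off livers and at 369 and 660.5 in the Fah p21 off livers, against 55.3, 69.4, 48.3 and 75.2 in normal 1 to 4. The normal livers were tight and the groups stood far apart. Bicc1 had the lowest adjusted p of the members in both genotypes: it rose by 2.73 ± 0.21 (6.63-fold, adjusted p = 4.18e-06) in Fah off livers and by 2.82 ± 0.24 (7.08-fold, adjusted p = 1.64e-05) in Fah p21 off livers.

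The sequences before Cldn4 and Prom1 are shown because both genes hold the AP-1 letters TGANTCA, which 7.81% of all 32851 windows hold. Cldn4 had them at 240 and 158 bases before its start. Prom1, which has 2 listed starts, had them at 88 bases before the upstream start and 189 bases before the downstream start, and TGGGAA at 116 bases before the upstream start. The windows are chr5:134946935-134947184 for Cldn4, chr5:44101737-44101986 for the upstream and chr5:44094769-44095018 for the downstream start of Prom1, all on the minus strand. In the windows of Krt8, Krt18, Krt23 and Epcam the AP-1 letters were not found, and no member window held the TEAD or SOX letters, which stood in 14.7% and 10.7% of all windows. A match is a description of letters and not a bound site.
Cldn4: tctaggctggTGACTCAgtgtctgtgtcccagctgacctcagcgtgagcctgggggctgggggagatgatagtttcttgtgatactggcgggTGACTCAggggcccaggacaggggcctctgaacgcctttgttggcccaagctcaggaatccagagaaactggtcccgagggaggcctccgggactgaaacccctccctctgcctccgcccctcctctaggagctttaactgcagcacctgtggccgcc
Prom1 upstream start: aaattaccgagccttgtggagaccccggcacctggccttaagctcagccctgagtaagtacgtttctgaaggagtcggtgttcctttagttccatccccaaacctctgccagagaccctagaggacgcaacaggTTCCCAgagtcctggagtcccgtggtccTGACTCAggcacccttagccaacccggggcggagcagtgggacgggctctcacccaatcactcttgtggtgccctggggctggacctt
Prom1 downstream start: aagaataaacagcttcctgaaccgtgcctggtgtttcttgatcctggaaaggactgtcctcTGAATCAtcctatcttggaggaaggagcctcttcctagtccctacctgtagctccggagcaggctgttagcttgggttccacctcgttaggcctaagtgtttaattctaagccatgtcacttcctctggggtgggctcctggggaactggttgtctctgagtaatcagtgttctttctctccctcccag

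Sox9, the transcription factor of duct and progenitor cells, has 2 probe sets on 430A. By 1451538_at it was at 161, 69.5 and 83 in the Fah off livers and at 107.7 and 128.3 in the Fah p21 off livers, against 34.1, 23.3, 40.7 and 71.7 in normal 1 to 4. Here the groups overlapped, since normal 4 lay above Fah off 2. The change was 1.12 ± 0.35 (adjusted p = 0.0294) in Fah off livers and 1.36 ± 0.40 (adjusted p = 0.0265) in Fah p21 off livers, the highest adjusted p of the members that passed. The Fah off call ended without Fah off 1 (change 0.79, adjusted p = 0.145), normal 1 (1.07, adjusted p = 0.0588) or normal 2 (0.93, adjusted p = 0.0685), and the Fah p21 off call ended without either of its livers or without normal 1 or normal 2 (1.17 to 1.48, adjusted p up to 0.157). By 1424950_at Sox9 was at 46.1, 28.5 and 12.6 in the Fah off livers and at 40.5 and 57.4 in the Fah p21 off livers, against 3.1 to 5.9 in the normal livers, with no overlap. That probe set lay under the filter in every liver. With no filter it rose by 1.32 ± 0.29 (adjusted p = 0.00737) and 2.00 ± 0.33 (adjusted p = 0.00201).

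Loss of p21 was set against its presence among livers off NTBC, Fah p21 off (n = 2) against Fah off (n = 3). None of the 10 tested member probe sets passed in limma, and none had an unadjusted p under 0.05. Over all 15307 probe sets limma called 6, or 0.0392%, and 8.06% at an unadjusted p under 0.05. The ranges of both genotypes overlapped for all 12 probe sets. The share of all probe sets that overlap was not counted, and groups of 2 and 3 livers often overlap. That count is therefore not read as a sign of no difference. The 95% interval was narrowest for Krt18, at -0.35 to 0.41 around 0.03 ± 0.17 (adjusted p = 0.979). For Krt8 1420647_a_at the difference was 0.08 ± 0.19 (adjusted p = 0.935), with an interval of -0.34 to 0.49. With each array set to a common median the sign of both differences turned (-0.14 for Krt18 and -0.10 for Krt8). For Bicc1 it was 0.10 ± 0.25 (interval -0.46 to 0.65) and for Cldn4 -0.11 ± 0.35 (interval -0.89 to 0.67). The intervals were wide for Epcam, at -0.99 to 1.15 around 0.08 ± 0.49, and for Krt23, at -1.16 to 1.28 around 0.06 ± 0.55. The largest difference was that of Prom1, 0.60 ± 0.39 (adjusted p = 0.722, interval -0.25 to 1.46), which was -0.09 without Fah p21 off 2 and 1.30 without Fah p21 off 1. Both comparisons with normal liver share the same 4 normal livers, so the likeness of their values is no independent sign.

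**Figure D2:**
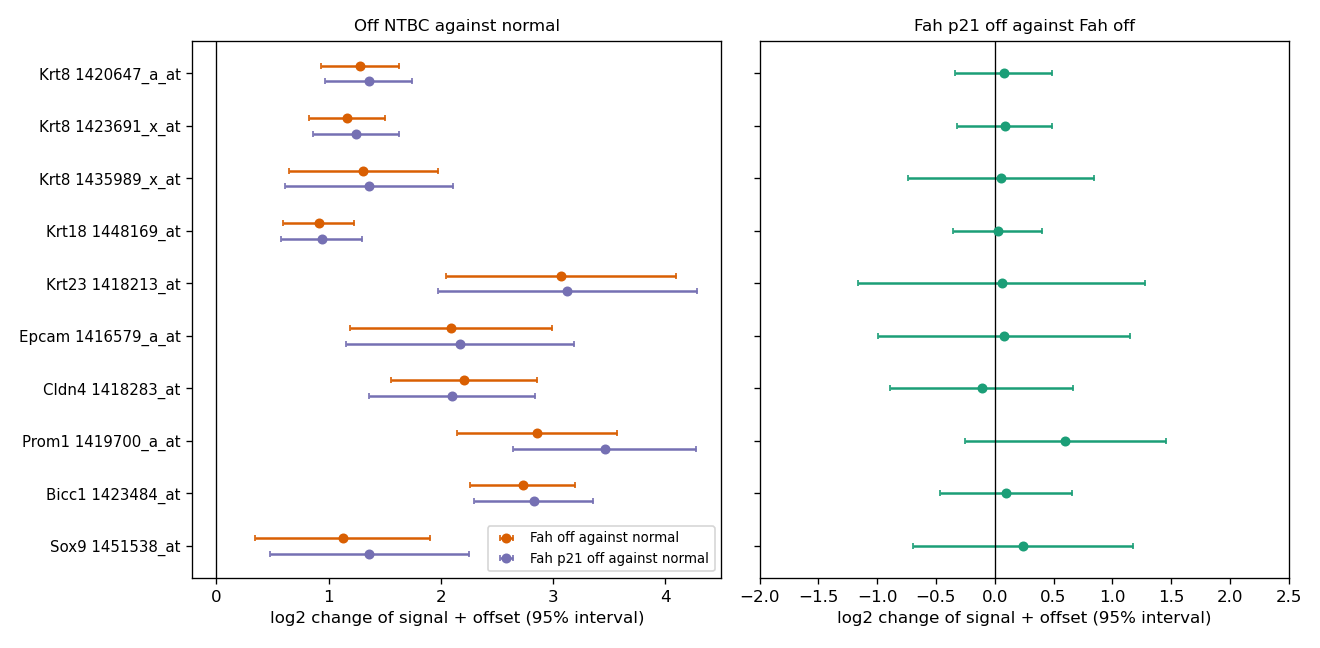
Log2 change of signal + offset (x axis) with its 95% interval from limma for the 10 tested member probe sets on 430A. Left, Fah off and Fah p21 off livers against normal livers: all intervals lie above 0. Right, Fah p21 off against Fah off livers: all intervals span 0, the narrowest that of Krt18.

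Livers within a group differed. In all 12 member probe sets Fah p21 off 2 was above Fah p21 off 1, whereas 46.8% of all tested probe sets were. The summed signal of 12 proliferation genes was also unlike, with 12660 as the higher and 5956.4 as the lower value of these 2 livers, against 2942.1 to 3326.2 in the Fah off livers and 1315.2 to 1406.5 in the normal livers; the higher sum was that of Fah p21 off 2, and its part in the member values was not tested. Among the Fah off livers, Fah off 3 was highest in 8 of the 12 member probe sets, those of Krt8, Krt18, Krt19, Krt23, Epcam and Prom1, and 33.6% of all tested probe sets were highest there. Cldn4 and both Sox9 probe sets were instead highest in Fah off 1.

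The knockouts on NTBC, normal 3 and normal 4, differ in genotype, and the normal livers were not tested against one another. Of the 12 member probe sets 5 were highest in normal 4 among the normal livers, as were 38.2% of all tested probe sets. They were Krt18, Prom1, Bicc1 and both Sox9 probe sets. Normal 3 had the highest Cldn4 and the lowest Krt18, Bicc1, Epcam and Krt19. In no member probe set other than Sox9 1451538_at and Krt19 did a knockout liver on NTBC reach the lowest liver off NTBC.

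The 430 2.0 array measured 2 other Fah p21 off livers beside normal 4, with further probe sets for Bicc1, Epcam and Sox9. Krt8 1420647_a_at was at 10063.5 and 11368.5 in the Fah p21 off livers and at 4724.2 in normal 4, and Krt18 at 10324.6 and 11148.7 against 5123.7. Krt23 was at 573 and 706.6 against 74.5 in normal 4, Cldn4 at 539.8 and 452.9 against 73, and Prom1 at 1445.5 and 1350.4 against 47. In these 5 genes both livers off NTBC stood well above the normal liver and close to each other. The limma fit had 1 normal liver and 1 residual degree of freedom. In it Prom1 rose by 4.79 ± 0.27 (adjusted p = 0.000308), Krt23 by 3.03 ± 0.30 (adjusted p = 0.00155), Cldn4 by 2.70 ± 0.31 (adjusted p = 0.00252), Krt8 1420647_a_at by 1.18 ± 0.23 (adjusted p = 0.0196) and Krt18 by 1.07 ± 0.22 (adjusted p = 0.0254). All 3 Bicc1 probe sets rose, by 3.16 ± 0.30, 2.25 ± 0.25 and 3.35 ± 0.28. Of 15 tested member probe sets 12 passed, all higher off NTBC, against 7.71% of 26925 tested probe sets. With 1 normal array every tested probe set needed a liver off NTBC to reach the filter, and Epcam 1416579_a_at and Krt19 reached it in those livers alone, so that count is not read as support either. With no trend in the fit 7 passed, and with no filter 6 of 16, those of Prom1, Krt23, Cldn4 and Bicc1. The calls of Krt8 and Krt18 also ended when array medians were made equal (adjusted p 0.165 to 0.449).

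Probe sets of the same gene parted on this array. Epcam 1416579_a_at was at 219.5 and 174.9 in the Fah p21 off livers and at 33.8 in normal 4 and rose by 2.41 ± 0.40 (adjusted p = 0.0112), while Epcam 1447899_x_at was at 89 and 78.9 against 105.7 (-0.32 ± 0.42, adjusted p = 0.692). Sox9 1451538_at was at 233.3 and 216.9 against 78.5 and rose by 1.47 ± 0.34 (adjusted p = 0.0366). Sox9 1424950_at was at 98.9 and 72.5 against 40.3 (1.01 ± 0.50, adjusted p = 0.261), and Sox9 1433889_at, under the filter, was at 32.8 and 17.4 against 49.3. With no filter neither the Epcam call (adjusted p = 0.0724) nor the Sox9 call (adjusted p = 0.116) remained. Krt19 was at 62.5 and 96.6 in the Fah p21 off livers and at 24.8 in normal 4, a difference of 1.51 ± 0.56 that did not pass (adjusted p = 0.144). The same liver, normal 4, gave different signals on the arrays, with 430 2.0 over 430A at 0.752 for Prom1, 1.62 for Krt18 and 2.33 for Krt8 1420647_a_at, beside a median of 1.57 over 13377 shared probe sets with a 430A signal of at least 100 there. Levels are therefore compared within an array only.

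**Figure D3:**
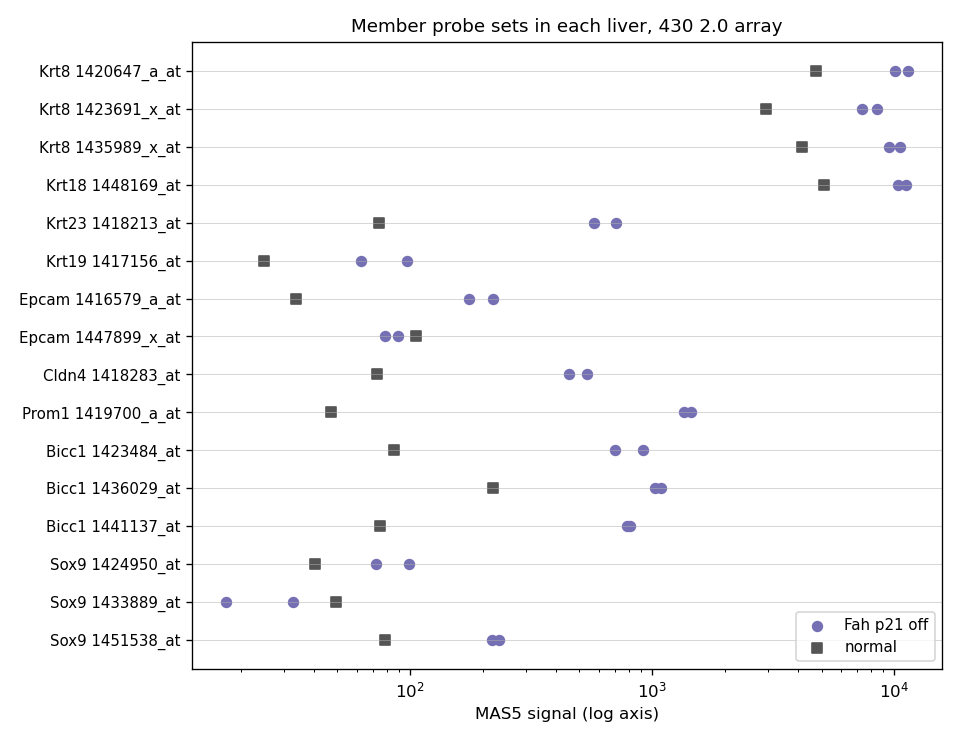
Signal of the 16 member probe sets on the 430 2.0 array (x axis, MAS5 signal, log axis), with circles for the 2 Fah p21 off livers and a square for the normal 4 liver. Both circles lie right of the square in 14 rows, as for 37.9% of all probe sets on the array, and left of it for Epcam 1447899_x_at and Sox9 1433889_at.

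Other genes of ducts were read from a list by 1 representative probe set per gene, that with the highest mean log2 signal. On 430A 21 of its 28 genes were present and 14 were tested. In each genotype off NTBC 4 rose, 1 fell and 9 did not pass, with a median change of 0.32 in Fah off and 0.22 in Fah p21 off livers, beside 0.02 and 0.11 for all tested probe sets, of which 20.1% and 17.7% rose. St14, Cd24a and Lamb3 lay under the 40th percentile in every normal liver and so reached the filter through livers off NTBC alone. The 4 that rose were St14, the gene of the membrane protease matriptase, Cd24a, a surface marker of progenitor and duct cells, Cdh1, the gene of E-cadherin, and Lamb3, a laminin chain. St14 was at 293.9, 297.2 and 253.2 in Fah off and 348.2 and 397.8 in Fah p21 off livers, against 31 to 84.9 in normal livers, changes of 2.40 ± 0.26 and 2.80 ± 0.30. Cd24a was at 180.2, 372.1 and 284.9 in Fah off and 471.9 and 845.2 in Fah p21 off livers, against 34.2 to 67.7 in normal livers, changes of 2.26 ± 0.29 and 3.47 ± 0.33. Cdh1 changed by 1.66 ± 0.23 and 1.39 ± 0.26 and Lamb3 by 1.45 ± 0.25 and 1.36 ± 0.28. Onecut1, a transcription factor of hepatocytes and early ducts, fell in both (-1.62 ± 0.36 and -1.28 ± 0.41, adjusted p up to 0.0372).

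Krt7, Cftr and Pkhd1 were picked from the same list after their values were seen, and all 3 lay under the filter on 430A. Krt7, the other duct keratin, was at 9.8, 22.1 and 7.7 in Fah off and 26.7 and 19.7 in Fah p21 off livers, against 7.9 to 36 in normal livers. On 430 2.0 Krt7 was at 48.6 and 49 in the Fah p21 off livers and at 26.1 in normal 4, a difference that did not pass (0.81 ± 0.61, adjusted p = 0.466). The chloride channel gene Cftr was at 22.6, 1.8 and 2.2 in Fah off and 32.8 and 37 in Fah p21 off livers, against 4 to 30.2 in normal livers. Pkhd1, the gene of the ciliary protein fibrocystin, was at 30.9, 21.6 and 9.9 in Fah off and 23 and 45.5 in Fah p21 off livers, against 24.9 to 35.6 in normal livers. For Krt7 and Pkhd1 both groups off NTBC overlapped the normal livers on 430A, as for Krt19. For Cftr the Fah off livers overlapped the normal livers, while both Fah p21 off livers lay above them. The other listed genes under the filter there were Ehf, Muc1, Foxj1 and Dmbt1. Dmbt1 overlapped in both genotypes. For Ehf, Muc1 and Foxj1 the Fah off livers overlapped the normal livers, while both Fah p21 off livers lay above them. Ehf was at 28.9, 10.8 and 23.6 in Fah off and 21.9 and 31.9 in Fah p21 off livers, against 3.2 to 18.9 in normal livers. In Fah p21 off livers Muc1 was at 7.9 and 11.7, against 4.6 to 7.4 in normal livers. Foxj1 was at 94.1 and 80.3 there, against 22.9 to 63.9. On 430 2.0 Cftr, under the filter, was at 31.9 and 21.1 in the Fah p21 off livers, against 10.9 in normal 4. Pkhd1 was at 203.4 and 129.4 against 188.6 and Foxj1 at 10.3 and 5.5 against 25.4. Ehf, by another probe set, was at 55.9 and 43.4 against 5. On 430 2.0 Cd24a (4.08 ± 0.24), St14 (4.37 ± 0.39) and Fxyd3 (2.72 ± 0.53) rose, Onecut1 fell (-2.61 ± 0.38) and 15 of 19 tested genes of the list did not pass.

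**Figure D4:**
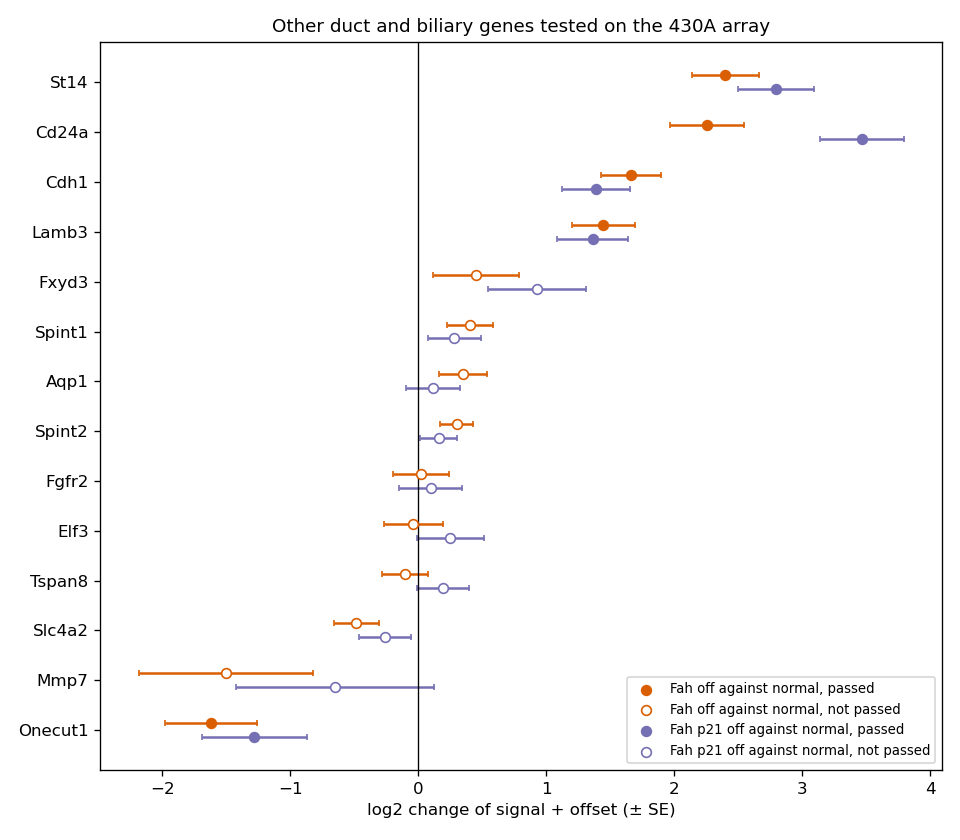
Log2 change of signal + offset ± SE (x axis) in Fah off and Fah p21 off livers against normal livers on 430A for the 14 tested genes of the duct and biliary list, sorted by the Fah off change. Filled points passed at an adjusted p under 0.05; St14, Cd24a, Cdh1 and Lamb3 rose, Onecut1 fell and 9 genes did not pass in either genotype.

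Of the other keratins, 18 of 20 were on 430A and 7 were tested, and 2 rose in each genotype, Krt20 and Krt79. Of all tested probe sets 20.1% rose in Fah off and 17.7% in Fah p21 off livers. Krt20 lay under the filter in every normal liver and so reached it through livers off NTBC alone. The count of 2 is therefore not read as support. Krt20 was at 113.3, 130.7 and 109.1 in Fah off and 125.4 and 132 in Fah p21 off livers, against 38 to 59.4 in normal livers, changes of 1.22 ± 0.22 (adjusted p = 0.00122) and 1.34 ± 0.24 (adjusted p = 0.00207). Krt79 changed by 1.46 ± 0.30 and 1.63 ± 0.34. On 430 2.0 Krt20 was at 197.1 and 179.6 in the Fah p21 off livers and at 5.2 in normal 4. Krt20 (4.41 ± 0.48), Krt79 (4.74 ± 0.47) and Krt76 (3.67 ± 0.55) rose there. Each of them lay under the filter in normal 4 and reached it in the livers off NTBC alone. Among partners of keratins and proteins of the keratin aggregates called Mallory-Denk bodies, 16 genes were tested. In Fah off livers 7 of the 16 rose and in Fah p21 off livers 8, beside the same 20.1% and 17.7%, and none fell. The small heat shock protein gene Hspb1 (3.59 ± 0.23 and 2.91 ± 0.26), the lamin A gene Lmna (2.19 ± 0.17 and 1.91 ± 0.19) and the transglutaminase gene Tgm2 (1.42 ± 0.20 and 1.56 ± 0.23) were among them. Sqstm1, the gene of p62, the adaptor found in those aggregates with Krt8 and Krt18, rose in Fah off livers (0.50 ± 0.12, adjusted p = 0.00761) and did not pass in Fah p21 off livers (0.33 ± 0.14, adjusted p = 0.0986) or on 430 2.0 (0.63 ± 0.22, adjusted p = 0.127). The medians of this list were 0.47 and 0.70.

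Claudins did not all follow Cldn4. Of 11 tested claudins and tight junction genes 3 rose (Cldn1, Cldn2 and F11r) and 3 fell (Cldn3, Ocln and Tjp3) in Fah off livers. In Fah p21 off livers 1 rose (F11r) and 1 fell (Cldn3). Cldn2 changed by 0.70 ± 0.18 in Fah off livers. Under the filter on 430A, Cldn7 was at 24.4 to 66.3 in livers off NTBC, against 6.6 to 17.1 in normal livers. Cldn6, Cldn8 and Cldn23 overlapped there. On 430 2.0 Cldn23 changed by 3.58 and Cldn7 by 1.06, and Cldn3 by -1.16 and Cldn12 by -1.05. Cldn1 rose in Fah off livers (1.03 ± 0.15), and Cldn3, an abundant claudin of hepatocytes and ducts, fell in both genotypes: it was at 986.4, 1057.7 and 901.5 in Fah off and 930.2 and 1223.2 in Fah p21 off livers, against 1577.7 to 2429.3 in normal livers (-1.06 ± 0.17 and -0.94 ± 0.19). Of the liver progenitor genes 4 of 10 tested rose in Fah off livers and 6 in Fah p21 off livers. Of all tested probe sets 20.1% and 17.7% rose. Among the progenitor genes that rose were the fetal liver gene Afp (6.31 ± 0.26 and 5.82 ± 0.30) and the TWEAK receptor gene Tnfrsf12a (5.51 ± 0.33 and 5.56 ± 0.38). Gpc3 (3.70 ± 0.33 and 2.54 ± 0.38) and Sox4, a relative of Sox9 (3.07 ± 0.20 and 2.88 ± 0.23), were others. Tnfrsf12a, Gpc3 and Sox4 lay under the filter in every normal liver and so reached it through livers off NTBC alone. The counts of progenitor genes that rose are therefore not read as support. Of the Notch and Yap pathway genes, which direct duct fate in development, 5 of 18 tested rose in Fah off and 6 in Fah p21 off livers and none fell, beside 20.1% and 17.7% of all tested probe sets that rose. Ajuba (2.65 ± 0.29 and 2.61 ± 0.32), a LIM protein of the Hippo pathway, and the Yap target Ccn1 (1.15 ± 0.23 and 1.20 ± 0.26) rose in both genotypes, and Notch1 by 0.73 ± 0.18 and 1.22 ± 0.20. The Notch targets Hes1 and Heyl and the ligand Jag1, chosen after their values were seen, did not pass in either genotype. The target Hey1 lay under the filter on 430A and was not tested there. Of the integrins and other osteopontin receptors 2 of 7 tested rose in Fah off and 3 in Fah p21 off livers, beside the same 20.1% and 17.7%.

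Markers of other cell types were read beside these results, and their part in the member changes was not tested. Of all 15307 tested probe sets on 430A, 20.1% rose in Fah off and 17.7% in Fah p21 off livers, and 2355 and 1637 fell. Of 12 tested macrophage markers 5 rose in Fah off and 7 in Fah p21 off livers, with summed signals of 7963.3 to 10528.5 and 11428.2 to 11576.8, against 5578.6 to 8559.7 in normal livers. Of 12 stellate cell and matrix markers 3 and 6 rose, with sums of 5861.2 to 8406.2 and 8774 to 9592.6, against 4252.9 to 5136.4. Among those that rose, the macrophage marker Gpnmb and the stellate cell markers Lrat and Pdgfrb lay under the filter in every normal liver. They reached it through livers off NTBC alone, so these counts are not read as support. Of 17 hepatocyte identity genes 15 fell in Fah off and 14 in Fah p21 off livers on 430A, with sums of 98327.9 to 108563 and 96084.9 to 105467, against 162178 to 171806. On 430 2.0 their sums were 182024 to 190557 in Fah p21 off livers and 236520 in normal 4, with a median change of -0.52. None of 4 tested pancreas and 3 tested kidney markers passed on 430A in either genotype; the kidney gene Aqp2 changed by -0.16 ± 0.17 and -0.03 ± 0.19, and the kidney marker Umod was at 3.7 to 23 in livers off NTBC, against 2.8 to 43.4 in normal livers. Of the gut epithelium markers 1 of 4 tested rose, the trefoil peptide gene Tff3 (1.30 ± 0.19 and 2.11 ± 0.21), and of 4 lymphocyte markers 1 rose, Ighm (0.71 ± 0.21 and 0.75 ± 0.24), which fell on 430 2.0 by another probe set (-2.13 ± 0.35). Of 11 tested proliferation genes 3 rose in Fah off and 11 in Fah p21 off livers. One, Cdk1, differed between these genotypes (3.81 ± 0.47, limma adjusted p = 0.0451), and no member passed in that comparison. Birc5, Ccnb2, Mki67, Top2a, Aurkb and Cdk1 lay under the filter in every normal and every Fah off liver. They reached it through the Fah p21 off livers alone, so neither these counts nor the Cdk1 call is read as support.

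The genes of most similar pattern were found among 9195 tested genes by the root mean square difference over the 9 livers of log2 values set against the normal mean, with 0 for an identical pattern. Nearest to Krt18 were Itga3 (0.111), Atp6v0e2 (0.12) and Creb3l2 (0.122), and nearest to Krt8 were Cstb (0.152), Sat1 (0.159) and Rcn2 (0.186). For Cldn4 they were Rcan2 (0.208), Ccng1 (0.214) and Adamtsl4 (0.264), for Bicc1 Mapk13 (0.218), Ccl6 (0.231) and Ifi27l2b (0.246), and for Epcam Panx1 (0.246), Lmna (0.384) and Lysmd2 (0.386). Sox9 was nearest to Rab7b (0.257), Fkbp15 (0.291) and Plekha7 (0.3), and Prom1 to Nid1 (0.351), Morc4 (0.36) and Gtse1 (0.367). Krt23 had the most distant neighbours, Cyp39a1 (0.557), Morc4 (0.57) and Psrc1 (0.576), and its normal livers spread the most.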

How the data were processed

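Liver RNA of 12 samples was measured on Affymetrix 430A (9) and 430 2.0 (3) arrays. The authors deposited intensity values, 1 signal per probe set on a linear scale, for which the submitters' processing notes name MAS5 and GCOS 1.4.0.036. Trimmed at percentiles 2 and 98, array means lay between 347.5 and 348.8. Symbols came from GEO's platform annotation, updated by Entrez identifier to RefSeq (GRCm38.p6; 20351 of 20380 probe sets with 1 symbol matched on 430A, 34741 of 34945 on 430 2.0). On 430A 691 probe sets had several symbols and 1555 none, on 430 2.0 932 and 9160, and no gene was named from these. Control probe sets (64 on each) were left out.

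Values were taken to log2(signal + offset), the offset being the 10th percentile of a table's signals. A probe set had to reach percentile 40 of the array on 2 or more arrays, and was then tested with limma 3.58.1 in R 4.3.3 (lmFit, eBayes with trend), all 9 arrays of 430A in 1 fit and 430 2.0 apart, and adjusted p-values are Benjamini-Hochberg values over all probe sets of a table. The fit was tested on simulated data. Plots were made in Python 3.11.15 with matplotlib 3.10.9. Members and lists were chosen with earlier results of these data known. Named were all members, and from each list up to 4 genes that passed with the largest changes, or others on which a sentence turns. Chosen after their values were seen were Sqstm1, Krt7, Cftr, Pkhd1, Ehf, Muc1, Foxj1, Dmbt1, Cldn6, Cldn7, Cldn8, Cldn12, Cldn23, the Notch targets and ligand, Alb, Aqp2 and Umod. Alternatives were other filters, offsets, scalings and variance models, array weights, the title's replicate number as a block, genotype-matched controls, and leaving out each array. No pair of 430A arrays shared over 0.407% identical signals.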

Additional observations from a re-analysis of the deposited data

Results flagged for a closer look

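Of 12 member probe sets examined on 430A for a liver apart within the 4 normal livers, 1 was found. Krt19 was at 15.5 in normal 3, the Fah knockout on NTBC, and at 28.6, 30.4 and 30.3 in the other normal livers, so that the gap took a share of 0.901 of the group's range on the log2 scale. With 12 probe sets examined, 1 such gap can arise by chance, and all 4 signals lie under the 40th percentile of their arrays.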

How the results depend on the processing

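In every alternative run, the changes of the 10 tested member probe sets against normal liver kept their direction on 430A. Of the values under alternatives on 430A, 193 stayed on their side of the threshold in Fah off and 187 in Fah p21 off livers, while 5 and 11 no longer passed. On 430 2.0 16 no longer passed and 131 were counted as unchanged. The unchanged values take in fits without 1 Fah p21 off liver. Those fits set 1 liver against 1, have no p-value and show direction only. The cause of the losses was not tested. With genotype-matched controls, 1 liver per comparison, 3281 and 2353 probe sets passed in Fah off and Fah p21 off livers, with 8 and 6 of the 10 members. Krt8 1435989_x_at (adjusted p = 0.0659 and 0.0614) and Sox9 (0.124 and 0.411) were lost in both, and Epcam (0.0806) and Krt18 (0.0614) in Fah p21 off livers. With a common median Krt8 1435989_x_at was lost in Fah p21 off livers (1.12, adjusted p = 0.0583). Leaving out 1 array gave 4315 to 5246 called probe sets and 9 to 10 members in Fah off livers, and 2533 to 4663 and 7 to 10 in Fah p21 off livers, the lowest counts being 2533 when Fah p21 off 1 was dropped and 2595 for Fah p21 off 2. The median change of all tested probe sets in Fah p21 off livers was 0.11 with the authors' scaling, -0.13 with a common median and -0.02 with quantile normalization.

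For Fah p21 off against Fah off, 6 probe sets passed, against 1 with the filter at percentile 60, 14 with an offset at percentile 25, 1 when none was added, 3 with a common median, 13 with no trend, 2 with robust and 54 with array weights, and 1 to 80 when 1 array was left out (80 without Fah p21 off 1, 2 when Fah p21 off 2 was dropped, 1 for any other). No member passed in any of these. Signs turned with a common median for Epcam (-0.0754), Krt23 (-0.11), Krt8 (-0.0951, -0.0883 and -0.118), Bicc1 (-0.0726) and Krt18 (-0.14), and with quantile normalization for Epcam (-0.10). Leaving out 1 array gave -0.34 to 0.50 for Epcam, -0.0888 to 0.16 for Krt23, -0.33 to 0.11 for Cldn4, -0.0937 to 1.30 for Prom1, -0.32 to 0.51 for Bicc1, -0.0543 to 0.16 for Krt18, and -0.10 to 0.25, -0.0504 to 0.27 and -0.39 to 0.50 for the 3 Krt8 probe sets. On 430 2.0, 1002 probe sets and 6 members passed with no filter and 1225 and 7 with no trend, against 3101 and 12.

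For the 430A comparisons in the order above, the replicate number as a block gave 4463, 3479 and 1 called probe sets, with 10, 10 and 0 members. Deviations of same-numbered livers from their group means correlated between -0.2814 and 0.0713. In groups this small, with normal livers that differ in genotype and treatment, such correlations cannot decide whether the numbers pair livers. Signals near the offset (Krt19, Sox9 1424950_at) limit what small changes can show.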
